A study of Zea mays with 12 samples.

Results

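The protein disulfide isomerase genes described here are those whose name in maize is pdi followed by a number. They were taken from the array's annotation, updated through the RefSeq gene table, in which the pdi names stand among the synonyms. The rule found 9 genes (pdi3, pdi4, pdi5, pdi6, pdi7, pdi8, pdi10, pdi11 and pdi12) with 15 probe sets, out of 1108 genes with 1452 probe sets that carried a single gene annotation. Of these 15 probe sets, 14 passed the filter on dim signal and were tested, and the brightest probe set of pdi4, Zm.14476.2.S1_x_at, is described most fully.

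Protein disulfide isomerases are enzymes of the endoplasmic reticulum that form, break and rearrange disulfide bonds in newly made secretory proteins, and most carry thioredoxin-like domains with a pair of active-site cysteines. In maize endosperm, the storage tissue of the kernel, the endoplasmic reticulum makes zeins, the storage proteins of the seed, and packs them into protein bodies, and the gamma-zeins at the surface of these bodies are rich in cysteine. Plant enzymes of the family are grouped into PDI-like (PDIL) classes by sequence. The synonyms placed 3 of the genes in PDIL1 (pdi3 as PDIL1-3, pdi4 as PDIL1-4 and pdi5 as PDIL1-5, 6 probe sets together), 3 in PDIL2 (pdi6 as PDIL2-1, pdi7 as PDIL2-2 and pdi8 as PDIL2-3, 4 probe sets) and 3 in PDIL5 (pdi10 as PDIL5-2, pdi11 as PDIL5-3 and pdi12 as PDIL5-4, 5 probe sets).

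RNA was taken from endosperm at 19 days after pollination. The kernels were of the inbreds Mo17 and B73 or of either cross between them, Mo17xB73 and B73xMo17, all on field-grown plants and with no other treatment. Each of the 4 genotypes had 3 replicates, each a pool of 36 endosperms from a crossing date of its own, and each was measured on 1 Affymetrix array, so p-values measure the spread between pools of 3 dates. The parent written first was taken to be the female, which the labels do not state. Endosperm receives 2 genome doses from the female and 1 from the male, so under that reading B73xMo17 had 2 doses of B73 and Mo17xB73 had 2 doses of Mo17.

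Signals are the deposited MAS5 intensities on a linear scale. Differences were tested on log2(signal + 10.6) with limma, adjusted over all 11747 probe sets tested with the Benjamini-Hochberg method at a threshold of 0.05, and are called where they passed. Levels of different probe sets are not compared with each other, since probes differ in affinity. Probe sequences were not at hand, so whether the probes match the B73 and Mo17 alleles equally well was not tested. The arrays differed in brightness, with trimmed mean signals of 302 to 362 in B73, 299.7 to 452 in Mo17, 335 to 348 in B73xMo17 and 372 to 411 in Mo17xB73, and Mo17 replicate 1 was the dimmest array. The median B73-minus-Mo17 difference over all probe sets tested was -0.22 on the log2 scale as deposited, and -0.028, 0.0038 and -0.0098 after quantile normalization, median centring and trimmed mean scaling. The 6 detected starchy endosperm markers summed to signals of 44702 to 61856 per array (7 were listed), so markers of the labelled tissue were present on every array. As in any bulk tissue, fewer cells of a type and less RNA per cell cannot be told apart.

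Of the 14 tested probe sets, those of pdi4 had the largest inbred and reciprocal differences, and the signal was high in Mo17 and in Mo17xB73 and low in B73 and in B73xMo17. At Zm.14476.2.S1_x_at the 3 Mo17 arrays read 342, 507 and 544 (464 ± 107, SD, n = 3). The Mo17xB73 arrays read 234, 335 and 332 (300.5 ± 57.9). The B73 arrays read 108, 118 and 174 (133 ± 35.8), and the B73xMo17 arrays read 87.2, 123 and 85.2 (98.5 ± 21.3). Every Mo17 array lay above every Mo17xB73 array, and every Mo17xB73 array lay above every array of the other 2 genotypes, whereas B73 and B73xMo17 overlapped.

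**Figure D1:**
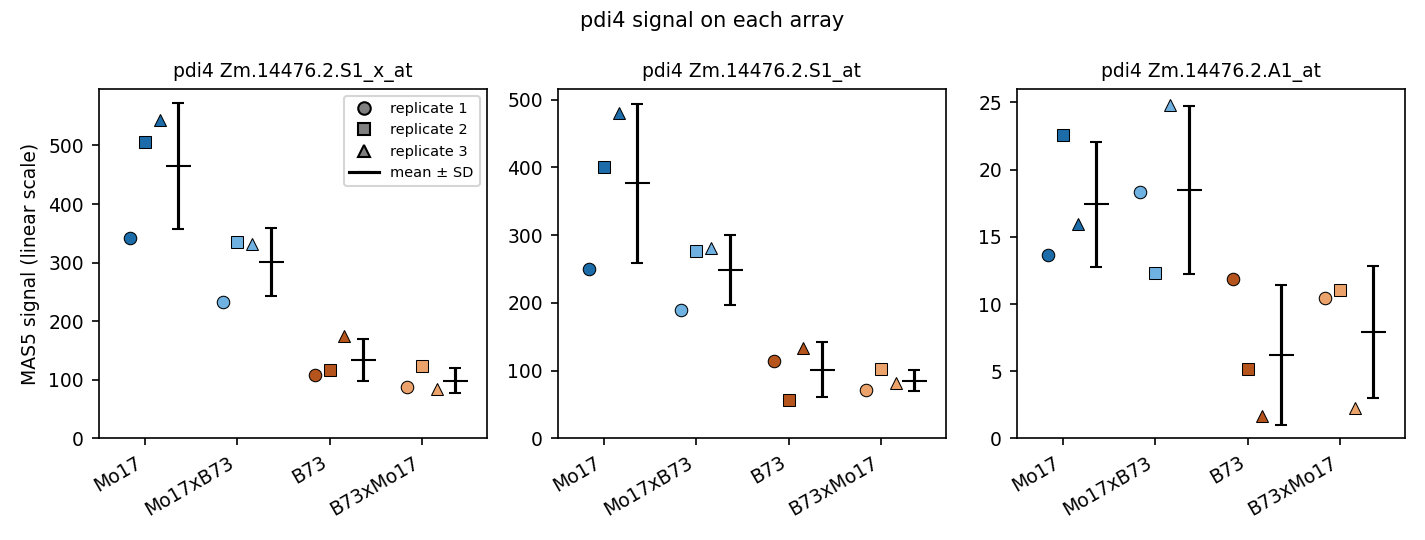
Signal of the 3 pdi4 probe sets on each of the 12 arrays by genotype (vertical axis, deposited MAS5 signal; markers show the replicate number, bars the mean ± SD of 3 arrays). In Zm.14476.2.S1_x_at the Mo17 arrays lie between 342 and 544 and the B73xMo17 arrays between 85.2 and 123.

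Between the inbreds pdi4 was 3.30-fold higher in Mo17, with a B73-minus-Mo17 difference of -1.72 on the log2 scale (SE 0.22, limma adjusted p = 2.51e-06). Within each crossing date the Mo17 signal was 3.16, 4.31 and 3.12 times that of B73. Between the reciprocal hybrids it was 2.85-fold higher in Mo17xB73, a B73xMo17-minus-Mo17xB73 difference of -1.51 (adjusted p = 0.00014), and within the dates the ratios were 2.68, 2.73 and 3.90. Both differences passed the threshold in each of 22 alternative fits, in which they ran from -1.92 to -1.48 between the inbreds and from -1.68 to -1.23 between the hybrids.

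The other 2 pdi4 probe sets also had higher means in Mo17 and Mo17xB73 than in B73 and B73xMo17. Zm.14476.2.S1_at, designed from the same target sequence record as Zm.14476.2.S1_x_at and so no independent measurement of the gene, read 249.5, 400.4 and 479.9 in Mo17 and 189, 277 and 281 in Mo17xB73. It read 114, 56.4 and 134 in B73 and 71.5, 102 and 81.6 in B73xMo17. Its differences were -1.81 between the inbreds (adjusted p = 1.37e-05) and -1.43 between the hybrids (adjusted p = 0.00127), and arrays of Mo17 or Mo17xB73 did not overlap arrays of B73 or B73xMo17. Zm.14476.2.A1_at was too dim to be tested, with means of 17.4 ± 4.63 in Mo17, 18.5 ± 6.23 in Mo17xB73, 6.22 ± 5.19 in B73 and 7.91 ± 4.92 in B73xMo17. Within the dates its Mo17 to B73 ratio ran from 1.15 to 9.68, and its Mo17xB73 to B73xMo17 ratio from 1.12 to 11.1. Probe sets with names ending in x_at or a_at can bind transcripts of related genes, and the pdi3 and pdi4 probe sets carry the same cluster number, 14476, so the signals of these genes may not be fully separate.

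The hybrids were then set against their parents, in comparisons that share arrays with one another. B73xMo17 lay 4.32-fold below Mo17 at the same pdi4 probe set (difference -2.11, adjusted p = 3.59e-07). Its difference from B73, its presumed female parent, was -0.39 with a 95% interval of -0.85 to 0.07 (adjusted p = 0.468). Mo17xB73 lay 2.17-fold above B73 (difference 1.12, adjusted p = 0.00073). Its difference from Mo17, its presumed female parent, was -0.60 with an interval of -1.06 to -0.14 and an adjusted p of 0.133. With the crossing date as a block, which pairs the arrays, this last difference passed (adjusted p = 0.0388), as it did after median centring, after trimmed mean scaling and without Mo17 replicate 1 (adjusted p = 0.0216, difference -0.80).

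Against the mean of the parents weighted by dose, pdi4 was low in B73xMo17. The weighted mean of the parents was 243.7 and the observed mean was 98.5 ± 21.3, a ratio of 0.404, and the difference on the log2 scale was -1.21 (SE 0.192, adjusted p = 0.00248). It passed in all 24 alternative fits run for it, with values of -1.49 to -0.96. In Mo17xB73 the weighted mean was 354 and the observed mean 300.5, a ratio of 0.849, and the difference of -0.22 did not pass (interval -0.65 to 0.21, adjusted p = 0.99). Placed on a scale where Mo17 is 0 and B73 is 1, B73xMo17 stood at 1.11 ± 0.128 and Mo17xB73 at 0.492 ± 0.0701 (n = 3 dates), where the doses alone would put them at 0.667 and 0.333. On average both positions were nearer to B73 than the doses, and of the differences from the weighted mean the one in B73xMo17 passed the test.

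**Figure D2:**
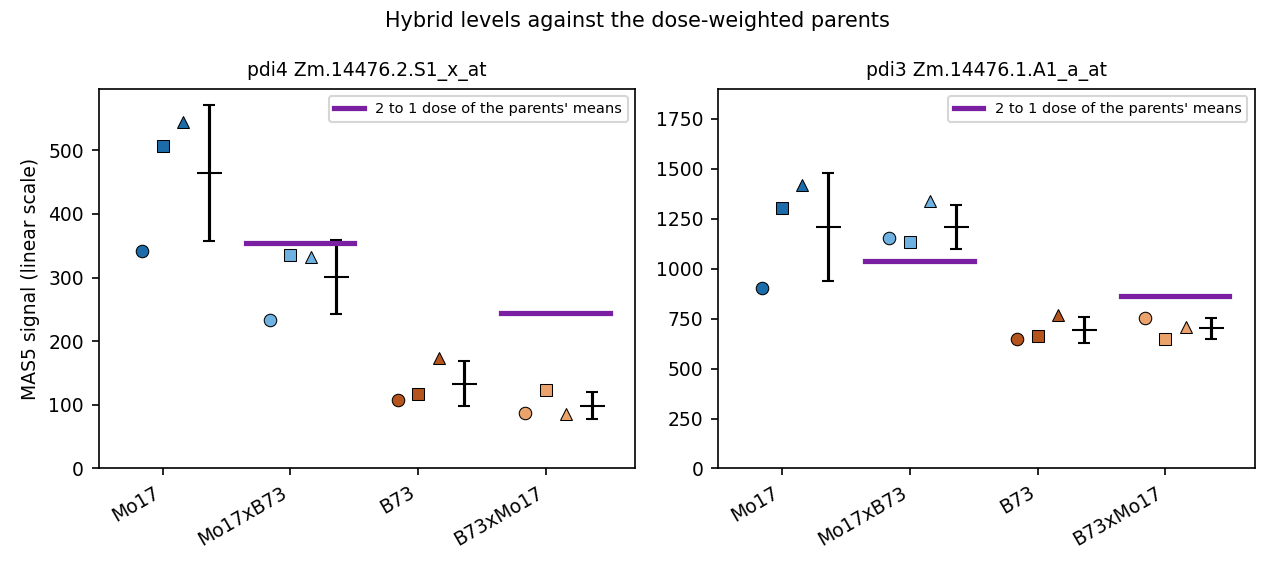
Signal of pdi4 Zm.14476.2.S1_x_at and pdi3 Zm.14476.1.A1_a_at on each array by genotype (vertical axis, deposited MAS5 signal; bars, mean ± SD of 3 arrays), with a horizontal line at the dose-weighted mean of the parents for each hybrid. The observed pdi4 mean in B73xMo17 was 0.404 of the weighted mean.

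The 2 hybrids differed from each other by more than the doses predict at this probe set. The reciprocal difference was wider than its dose-based expectation by 0.99 on the log2 scale (SE 0.227, adjusted p = 0.011, the adjustment being over 5058 probe sets with a called inbred difference). The call was lost without Mo17xB73 replicate 3 (0.91, adjusted p = 0.0593) and without B73xMo17 replicate 3 (0.91, adjusted p = 0.0659). At Zm.14476.2.S1_at the excess was 0.89 (adjusted p = 0.0592), and it passed with the crossing date as a block (adjusted p = 0.022).

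Among the other PDIL1 genes, pdi3 followed pdi4 in which genotypes were high. At Zm.14476.1.A1_a_at it read 904, 1303 and 1420.3 in Mo17 and 1156, 1135 and 1338 in Mo17xB73. It read 646, 666 and 768 in B73 and 753, 648 and 707 in B73xMo17. All Mo17 and Mo17xB73 arrays lay above all B73 and B73xMo17 arrays, and the means of Mo17 (1209 ± 271) and Mo17xB73 (1209.6 ± 112) lay within 1 SD of each other, as did those of B73 (693 ± 65.5) and B73xMo17 (703 ± 52.6).

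The inbred difference of pdi3 was -0.77 (1.71-fold, adjusted p = 0.00206) and the reciprocal difference was also -0.77 (adjusted p = 0.0088), the second being lost without Mo17xB73 replicate 3 (adjusted p = 0.0571). Its second probe set, Zm.14476.1.A1_at, was designed from the same target sequence record and so is no independent measurement. It gave -0.72 and -0.69 (adjusted p = 0.00639 and 0.0296), and leaving out any 1 of 5 of the hybrid arrays took the latter past the threshold (adjusted p of up to 0.124). Neither hybrid passed the test against its presumed female parent, with intervals of -0.36 to 0.40 for B73xMo17 minus B73 and -0.36 to 0.41 for Mo17xB73 minus Mo17. The dose-weighted means were 865 for B73xMo17 and 1037 for Mo17xB73. The excess of the reciprocal difference over the doses was 0.52 (interval 0.12 to 0.92, adjusted p = 0.135), and after quantile normalization it was 0.41 and passed (adjusted p = 0.00971).

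The third PDIL1 gene, pdi5, was dim. Zm.6062.1.A1_at read 48.2, 93.8 and 103.7 in Mo17, 49.2, 60.9 and 41.1 in Mo17xB73, 20.9, 38.5 and 33.1 in B73, and 36.8, 34.2 and 34.1 in B73xMo17. The Mo17 arrays lay above the B73 arrays, though Mo17 replicate 1 lay below Mo17xB73 replicates 1 and 2. The gene was 2.18-fold higher in Mo17 than in B73 (difference -1.13, adjusted p = 0.00109), and the reciprocal difference of -0.41 did not pass (interval -0.92 to 0.11, adjusted p = 0.307).

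Proteins of the PDIL2 class in plants carry several thioredoxin-like domains, as does the classical enzyme of the PDIL1 class. Of the PDIL2 genes, pdi7 differed between the inbreds at 1 of its 2 probe sets. Zm.5048.5.S1_a_at read 417, 728 and 802 in Mo17 and 311, 401 and 447 in B73, so that Mo17 replicate 1 fell inside the B73 range. The difference was -0.69 (adjusted p = 0.0128), and it did not pass without B73 replicate 1, Mo17 replicate 2 or Mo17 replicate 3 (adjusted p of 0.0755, 0.0683 and 0.0802). Zm.5048.5.S1_at gave -0.46 (interval -0.91 to -0.01, adjusted p = 0.0949), which passed with the crossing date as a block (adjusted p = 0.0248).

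The other PDIL2 genes did not pass in the inbred or the reciprocal comparison. The signal of pdi6 at Zm.5668.2.A1_at ranged more within a genotype than between genotypes, with 676.5, 1069 and 1523 in B73 and 809.5, 1402 and 1455 in Mo17, and replicate 1 was the lowest array in all 4 genotypes. Its inbred difference was -0.19 with an interval of -0.80 to 0.41. For pdi8 (Zm.4251.1.S1_at) the means ran from 1246 ± 332 in B73 to 1511 ± 239 in Mo17, and the inbred difference was -0.30 (interval -0.75 to 0.15, adjusted p = 0.275).

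The PDIL5 class of plants includes proteins with a lone thioredoxin-like domain, and its genes went in both directions here. In pdi10, Zm.4809.2.S1_at read 269, 441.5 and 490.0 in Mo17 and 255, 249.8 and 268 in B73, and the difference of -0.57 (adjusted p = 0.0311) did not pass once the arrays were quantile normalized (-0.33, adjusted p = 0.0717) or centred on their medians (-0.35, adjusted p = 0.0585). It was also lost in 5 of the 6 fits that left out an inbred array (adjusted p of 0.0534 to 0.161), with no filter (0.0531) and with only the groups compared (0.063). All Mo17 arrays lay above all B73 arrays, by less than 1 signal unit for Mo17 replicate 1 over B73 replicate 3.

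The 2 probe sets of pdi11, designed from the same target sequence record, did not give the same inbred difference. Zm.4809.1.A1_a_at read 962, 1359 and 1477 in Mo17 and 835, 828 and 926 in B73, a difference of -0.53 (adjusted p = 0.0207) that was lost without B73 replicate 1 or 2 or Mo17 replicate 2 or 3 (adjusted p of 0.0628 to 0.102) and with only the groups compared (0.0792). Zm.4809.1.A1_at read 351, 548 and 618 in Mo17 and 576, 591 and 657 in B73, a difference of 0.30 in the opposite direction (interval -0.10 to 0.70, adjusted p = 0.223). After quantile normalization, median centring or trimmed mean scaling both probe sets passed, still with opposite signs (-0.29 and 0.54 after quantile normalization, adjusted p = 0.0106 and 0.000342). Across the 12 arrays the log2 signals of the 2 probe sets correlated at r = 0.116, and at r = -0.644 after quantile normalization. As deviations from the genotype means they correlated at r = 0.969, a description over arrays that share brightness. The pdi10 and pdi11 probe sets carry the same cluster number, 4809, so their signals may not be fully separate either.

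In pdi12, 1 of 2 probe sets was higher in B73. Zm.5770.2.S1_a_at read 540.5, 588 and 633 in B73 and 239, 459 and 486 in Mo17, with 544, 453 and 511 in B73xMo17 and 469, 412 and 430.4 in Mo17xB73. All B73 arrays lay above all Mo17 arrays, and the hybrids overlapped each other. The inbred difference was 0.62 (1.54-fold, adjusted p = 0.025), and it was larger after each of the 3 scalings (0.86, 0.84 and 0.84). The call was lost without B73 replicate 2, B73 replicate 3 or Mo17 replicate 1 (adjusted p of 0.0642, 0.0767 and 0.0726) and with only the groups compared (0.065). Zm.5770.1.S1_at gave 0.15 (interval -0.24 to 0.54, adjusted p = 0.551), and 0.39 after quantile normalization (adjusted p = 0.00283).

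**Figure D3:**
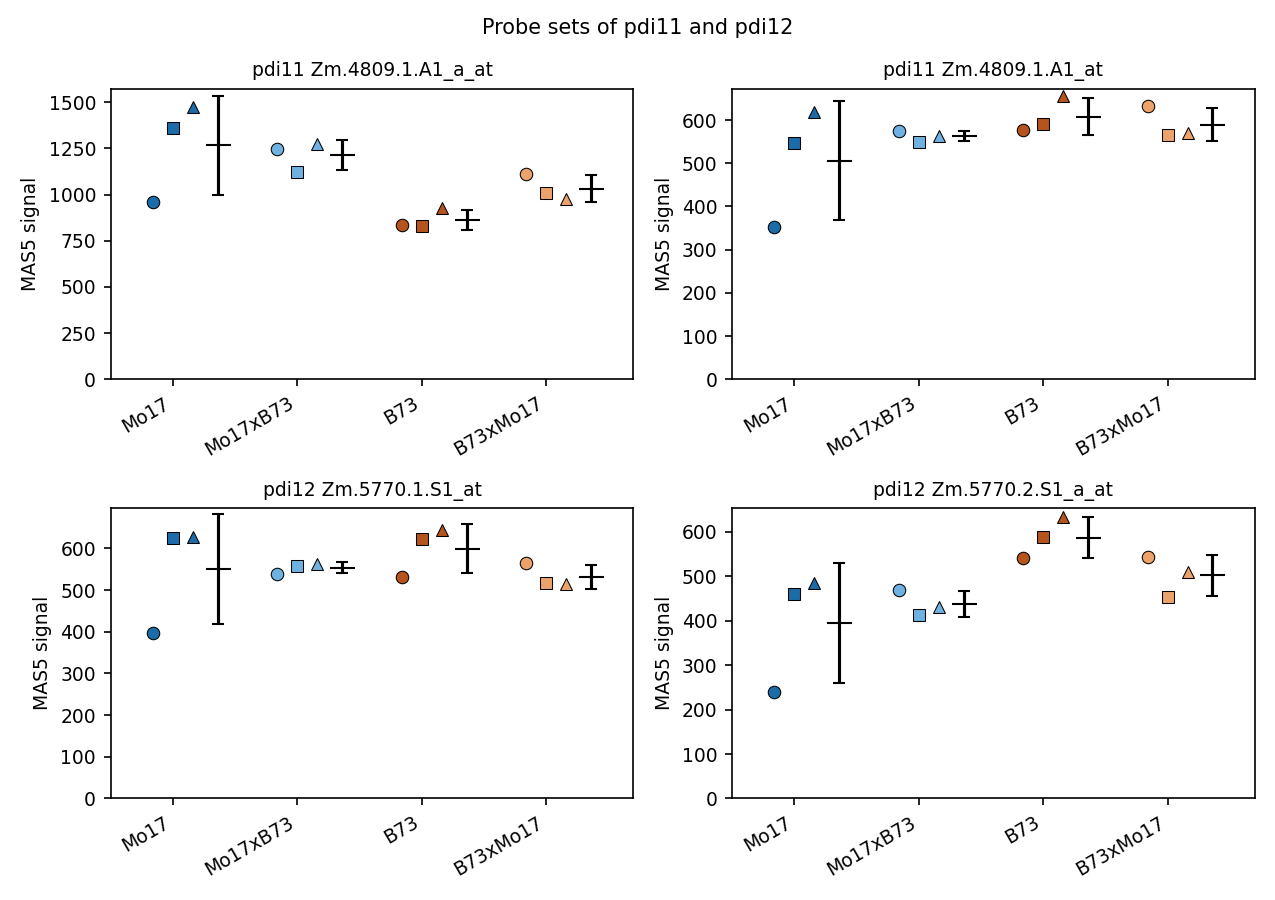
Signal of the pdi11 and pdi12 probe sets on each of the 12 arrays by genotype (vertical axis, deposited MAS5 signal; markers show the replicate number, bars the mean ± SD of 3 arrays). The Mo17 arrays lie above the B73 arrays in Zm.4809.1.A1_a_at and below them in Zm.5770.2.S1_a_at.

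Counted together, 9 of the 14 tested probe sets differed between the inbreds, against 43.1% of all probe sets tested. Several genes have more than 1 probe set among the 14, so these are counts of probe sets and not of independent genes. Of these, 8 were higher in Mo17 (29.5% of all probe sets) and 1 was higher in B73 (13.5%). The count of 9 fell to 6 without B73 replicate 1 or 2, without Mo17 replicate 2 or 3, and with only the groups compared. It was 7 without B73 replicate 3 and 10 with the crossing date as a block. The median difference of the 14 was -0.55, against -0.22 for all probe sets. After quantile normalization the split was 7 higher in Mo17 and 3 higher in B73, after median centring 7 and 3, and after trimmed mean scaling 8 and 3, the added calls in B73 being pdi11 Zm.4809.1.A1_at and pdi12 Zm.5770.1.S1_at. Over all probe sets the same split was 3468 higher in Mo17 and 1590 higher in B73 as deposited, and 2996 and 2701 after quantile normalization. In 7 of the 14 every Mo17 array lay above every B73 array (29.5% of all probe sets), and in 1 the reverse held (16.2%).

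Between the reciprocal hybrids 4 of the 14 passed, against 11.9% of all probe sets, and all 4 were higher in Mo17xB73 (8.79%). These were the probe sets of pdi3 and pdi4, and 2 of the 4, those of pdi4, passed without Mo17xB73 replicate 3. Those of pdi3 share a target sequence record, as do those of pdi4, so the 4 calls are repeat readings of 2 genes. In 7 of the 14 the Mo17xB73 arrays were all above the highest B73xMo17 array (27.6% of all probe sets). The median of the 14 was -0.28, against -0.14 for all, and after quantile normalization -0.11 against 0.0078, while the same 4 probe sets were called. Over all probe sets the split was 1033 higher in Mo17xB73 and 365 higher in B73xMo17 as deposited, and 1198 and 1340 after quantile normalization.

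**Figure D4:**
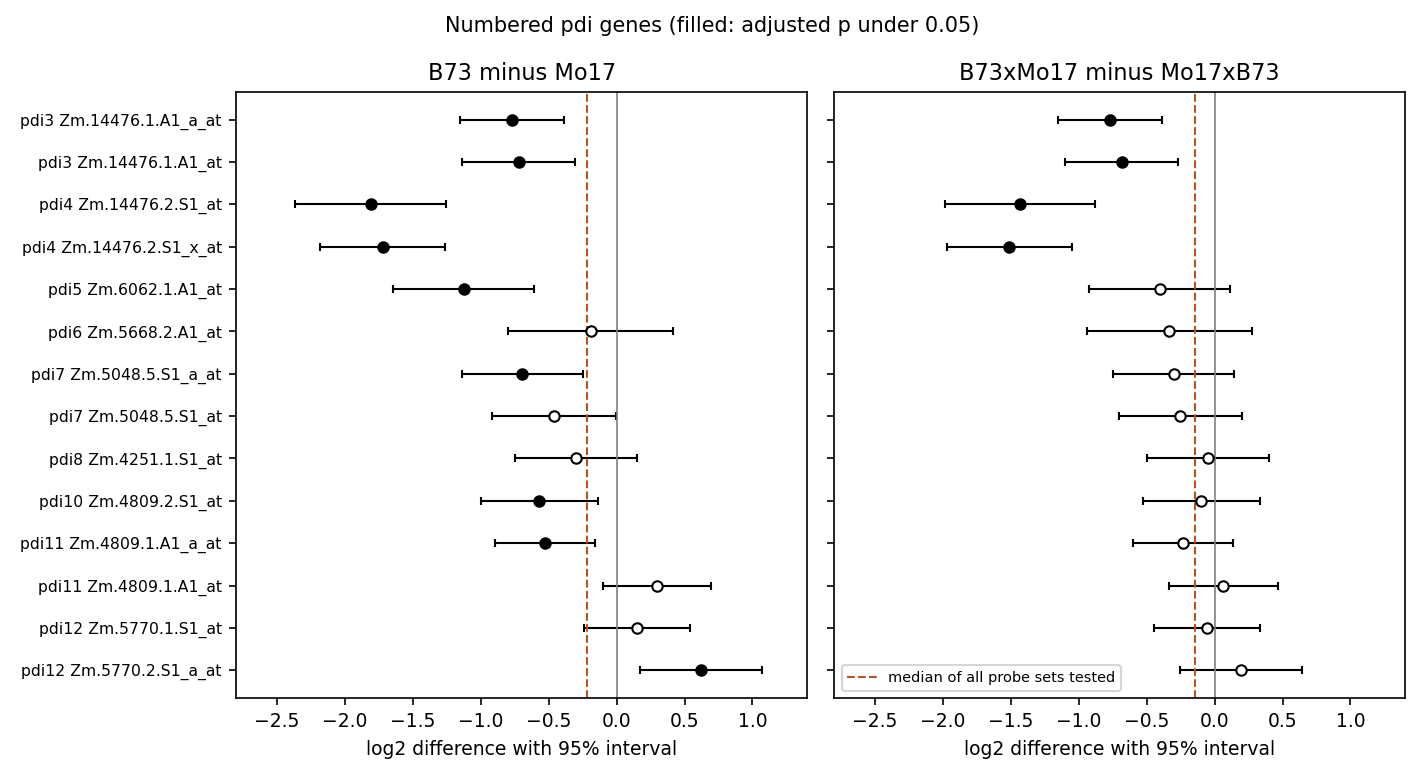
Difference of each of the 14 tested probe sets between the inbreds and between the reciprocal hybrids (horizontal axis, log2 scale, with 95% intervals; filled points passed the threshold), with the median of all 11747 probe sets as a line. The pdi4 probe sets lie furthest from 0 in both comparisons.

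Against single parents, B73xMo17 differed from B73 at 0 of the 14 (4.99% of all probe sets by limma; 0 also at an unadjusted p under 0.05) and from Mo17 at 6 (29.5%), all lower in the hybrid as deposited (18.5%). Those 6 were the probe sets of pdi3 and pdi4, pdi5, and pdi7 Zm.5048.5.S1_a_at. The pdi7 call (-0.58, adjusted p = 0.0483) was lost in 10 of the 12 fits that left out an array (adjusted p of 0.0517 to 0.226) and in 4 other alternatives, and that of pdi3 Zm.14476.1.A1_at in 4 of the 12 (0.0733 to 0.122) and with only the groups compared (0.0529). After each of the 3 scalings 8 passed, 6 of them lower and 2 higher in the hybrid, the latter being pdi11 Zm.4809.1.A1_at (0.45 after quantile normalization, adjusted p = 0.00242) and pdi12 Zm.5770.2.S1_a_at (0.58, adjusted p = 0.00262). With the crossing date as a block 8 passed, all lower, the added ones being pdi6 (-0.46, adjusted p = 0.0329) and pdi7 Zm.5048.5.S1_at (-0.42, adjusted p = 0.0494). Over all probe sets 2177 were lower and 1284 higher in B73xMo17 than in Mo17 as deposited, and 2373 and 2138 after quantile normalization.

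Mo17xB73 differed from Mo17 at 0 (6.47%; 2 at an unadjusted p under 0.05) and from B73 at 5 (27%), all higher in the hybrid as deposited (21.1%). Those 5 were the probe sets of pdi3 and pdi4 and pdi11 Zm.4809.1.A1_a_at, the last of which (0.49, adjusted p = 0.0452) was lost in 10 of the 12 fits that left out an array (adjusted p of 0.0549 to 0.144). After each of the 3 scalings 8 passed, 5 higher and 3 lower in the hybrid. The 3 lower ones were pdi11 Zm.4809.1.A1_at and both probe sets of pdi12, at -0.34, -0.34 and -0.65 after quantile normalization (adjusted p = 0.0141, 0.0104 and 0.00125). Over all probe sets 2476 were higher and 698 lower in Mo17xB73 than in B73 as deposited. The split was 1940 and 2163 after quantile normalization, 1776 and 2149 after median centring, and 1969 and 1946 after trimmed mean scaling. Each hybrid shares its arrays across these comparisons, and the inbreds share theirs, so the counts are not independent.

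Against the dose-weighted parents, B73xMo17 differed at 2 of the 14, both of pdi4 and both lower (0.715% of all probe sets differed and 0.511% were lower). These 2 probe sets share a target sequence record, so they are not independent calls. For Zm.14476.2.S1_at the difference was -1.05 (adjusted p = 0.0353), and it did not pass in 11 of the alternatives, with adjusted p of up to 0.2. Mo17xB73 differed at 0 (0.57%; 0 also at an unadjusted p under 0.05). Of the 9 probe sets whose inbreds differed, 1, that of pdi4, exceeded the doses in its reciprocal difference (5.91% of those tested in either direction, 3.88% in this one).

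A pair of genes of the same family fell outside the rule because neither has a name made of pdi followed directly by a number. The gene named pdi (PDIL1-1), the classical enzyme whose rice counterpart is needed for normal sorting of the seed protein glutelin, read 10059 ± 538 in B73, 11748 ± 1443 in Mo17, 11024 ± 723 in B73xMo17 and 12237 ± 248 in Mo17xB73. Its inbred difference of -0.22 did not pass (interval -0.45 to 0.01, adjusted p = 0.118), although it did after quantile normalization (adjusted p = 0.00428). PDIL5-1 gave an inbred difference of 0.27 (interval -0.07 to 0.60, adjusted p = 0.188), and after the 3 scalings it was 0.37 to 0.49 and passed.

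Other genes of folding and export in the endoplasmic reticulum were few on the annotated part of the array, with 5 of 32 listed names found. Of these 5, judged by their brightest probe sets, 1 was higher in Mo17, against 29.5% of all probe sets. This was derlin1, a component of the degradation of misfolded proteins (-0.85, 976 ± 184 in B73 and 1793 ± 521 in Mo17, adjusted p = 0.00208). The chaperone genes bip1 and bip2 gave -0.45 and -0.36 (adjusted p = 0.0636 and 0.202), derlin2 gave 0.04, and the calreticulin gene crt2 gave -0.01 at its brightest probe set and -0.95 (adjusted p = 0.00724) at a dimmer one. Between the hybrids 0 of the 5 passed by limma (adjusted p of 0.137 to 0.973), against 11.9% of all probe sets, and 1, bip1, had an unadjusted p under 0.05 (0.0305). Calnexin, added after its values were seen, was higher in Mo17 at 3 of 4 probe sets, with -0.65 at the brightest (adjusted p = 0.0183, and up to 0.117 over the alternatives), and had a reciprocal difference of -0.28 there (adjusted p = 0.424).

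Zeins were represented by the transcripts of 8 genes, and whether the pdi enzymes act on these zeins was not tested. By their brightest probe sets 2 were higher in B73 (13.5% of all probe sets) and 0 higher in Mo17 (29.5%). The delta-zein gene dzs18 read 15199.7 ± 889 in B73 and 45.2 ± 31.4 in Mo17 (8.23, adjusted p = 9.99e-16), and the alpha-zein gene z1C1_12 gave 0.67 (adjusted p = 0.00893, and up to 0.083 over the alternatives). The gamma-zein genes gz27 and gz50, whose proteins are rich in cysteine, gave 0.01 and 0.17 (adjusted p = 0.924 and 0.183), and a dim gz27 probe set gave -0.88 (adjusted p = 0.0012). Between the hybrids z1C1_12 alone passed, at -0.95 (adjusted p = 0.0029), against 11.9% of all probe sets in either direction. Of 4 genes for zein transcription factors, o2 and ohp1 were higher in B73 (13.5% of all probe sets) at their brightest probe sets (4.15 and 1.55, adjusted p = 2.07e-12 and 1.86e-06). At that probe set o2 was higher in B73xMo17 than in Mo17xB73 (0.70, adjusted p = 0.0337), a call lost in at least 1 alternative (adjusted p of up to 0.186). A second o2 probe set gave a smaller inbred difference of 0.75 (adjusted p = 0.0171, and up to 0.0696 over the alternatives). Its reciprocal difference of 0.50 did not pass (adjusted p = 0.186).

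Markers of the basal transfer layer and of the embryo moved in the same direction as pdi3 and pdi4. Of 9 basal transfer layer genes on the array (13 listed), the signals summed to 2326 to 2718 in B73, 5998 to 12511 in Mo17, 2845 to 3916 in B73xMo17 and 10205 to 12138 in Mo17xB73. Of the 8 tested, 6 were higher in Mo17 (29.5% of all probe sets) and 7 higher in Mo17xB73 (8.79%). The regulator MRP1 was near the floor of the array (means of 1.76 to 7.90). The embryo markers, 6 of 7 listed, summed to 458 to 886 in B73, 1279 to 2308 in Mo17, 622 to 1712 in B73xMo17 and 1812 to 2638 in Mo17xB73. Of 4 embryo markers tested, 3 were higher in Mo17 (29.5% of all probe sets) and 2 in Mo17xB73 (8.79%). Their part in the pdi3 and pdi4 differences was not tested. The 3 green or maternal tissue markers on the array, of 6 listed, summed to 130 to 201 on any array, and of 2 tested psah1 was higher in B73 (0.81, adjusted p = 0.00611) and lhcb6 gave -0.30 (adjusted p = 0.239). Of the aleurone markers, 3 of 5 listed were on the array and 2 were tested, dek1 being higher in Mo17 (-0.55, adjusted p = 0.0195) and cr4 higher in B73 (0.55, adjusted p = 0.0245), and over the alternatives these reached adjusted p of 0.113 and 0.0743. Neither list had a call between the hybrids (adjusted p of 0.308 to 0.849 at the brightest probe sets).

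The pdi probe sets varied together in part. Over the 91 pairs of the 14 tested probe sets, correlations of log2 signal over the 12 arrays ran from -0.48 to 0.98 with a median of 0.51, and the median was 0.080 after quantile normalization and 0.65 for deviations from the genotype means. These points share arrays, genotypes and array brightness. The probe sets of pdi4 correlated at 0.966 with each other, and the 2 of pdi3 at 0.981. The lowest values involved pdi12 Zm.5770.2.S1_a_at or pdi11 Zm.4809.1.A1_at, such as -0.48 between pdi12 Zm.5770.2.S1_a_at and pdi4 Zm.14476.2.S1_x_at.

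Likeness to pdi4 Zm.14476.2.S1_x_at was taken over 723 named genes, 1 probe set each. The numbered pdi genes were left out of these, but pdi (PDIL1-1) and PDIL5-1 were not. Those whose log2 signal was most like it over the 12 arrays were Ann6 (r = 0.958), iaglu (0.946), vdac2 (0.945), opr1 (0.944) and Rad51A2 (0.942). The least like were aba1 (-0.943) and GRF5 (-0.979). Over all 723 genes the median r was 0.422, with 0.88 at the 95th percentile and -0.764 at the 5th, and the arrays share 4 genotypes, so these values mainly order genes by genotype. The gene iaglu, for an enzyme that joins auxin to glucose, read 774 ± 201 in Mo17, 642 ± 67.4 in Mo17xB73, 250.2 ± 32.4 in B73 and 269 ± 28.4 in B73xMo17. The gene opr1, for a reductase of the jasmonate-related oxylipin group, read 1096 ± 517, 632 ± 143, 89.5 ± 13.9 and 109 ± 13.1 in the same order. In the opposite direction GRF5 read 41.9 ± 12.9, 71.0 ± 18.5, 236 ± 6.22 and 362 ± 49.4.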

How the data were processed

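Per the submitters' processing notes, the authors computed the deposited intensity values, which are on a linear scale, with MAS5. Which version and scaling target were chosen was not given in the sources used here, and no presence calls were used. Biotin-labelled RNA was hybridised to 1 array per sample, per the labels' protocols. The 113 control probe sets of 17734 were removed, then a filter on mean signal removed the dimmest 33.3% of the remainder, leaving 11747 probe sets. A constant of 10.6 (the 20th percentile of the values) was added to each signal before log2 was taken, so folds of dim probe sets are understated. No rescaling was applied in the main fit. Precision is limited by the number of arrays, 12.

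One limma 3.58.1 model (R 4.3.3) covered the 4 genotypes, with a mean-variance trend in eBayes and 8 residual degrees of freedom, or 19.8 once the prior was added. Tests were two-sided, p was adjusted by Benjamini-Hochberg, and the threshold was 0.05. The dose-weighted expectation for a hybrid was log2 of the linear parental mean with weights of 0.667 (female) and 0.333 (male), and its standard error came from the delta method. Each comparison was also run on simulated data with independent noise. Those data held no crossing-date effect and no difference in array brightness, so they cannot show how the fits behave under either.

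Arrays that share a replicate number share a crossing date, according to the labels, and are thus paired. Their deviations from genotype means had correlations of 0.0434 to 0.412 (18 pairs, 13 above 0.1), against -0.322 to 0.167 for 36 pairs of unlike number.

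The alternatives were constants of 1 and 50, other filters, 3 scalings, the date as a block, no trend, only the groups compared, other parental weights or scale, and each array left out. Gene names came from the platform annotation (1452 probe sets with 1 gene, 1 with several and 16281 with none) and from synonyms in the RefSeq gene table of Zm-B73-REFERENCE-NAM-5.0. Every member is described, and outside the numbered pdi genes the 5 most and 2 least correlated named genes and members of the pathway and marker lists are named. Set aside were 2 genes that matched a list by name only, a haemoglobin gene with the synonym GLB1 and the pullulanase gene zpu1. The embryo marker glb1 was kept. The members, lists and rules were chosen with earlier results of these data known. Sequences and coordinates were not used here.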

Additional observations from a re-analysis of the deposited data

Results flagged for a closer look

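The effects of the 2 reciprocal hybrids against their dose-weighted parents differed at pdi4 Zm.14476.2.S1_x_at, by a test of that difference. The reciprocal difference was wider than its dose-based expectation by 0.99 on the log2 scale (SE 0.227, limma adjusted p = 0.011), with B73xMo17 at 0.404 of its weighted parental mean and Mo17xB73 at 0.849 of its own, so both were displaced toward B73, Mo17xB73 by a difference that did not pass (-0.22, adjusted p = 0.99). Groups of 3 arrays were too small to test for outlying arrays.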

How the results depend on the processing

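Counts are of pdi probe sets called. Of the results recomputed under the alternatives, 30 were rated unchanged throughout and 32 changed in at least 1 alternative, and the causes were not tested. A single probe set was rated unchanged if it kept its direction and its side of the threshold. A count was rated unchanged if it stayed within 1.5 times its main value, even where single calls switched. The Mo17xB73-minus-B73 count rose from 5 (all higher) to 8 (5 higher, 3 lower) after quantile normalization, median centring and trimmed mean scaling (4 to 8 leaving out each array, 8 without Mo17 replicate 1). The Mo17xB73-minus-Mo17 count went from 0 to 1 after median centring, trimmed mean scaling and with the replicate block (0 to 4 leaving out each array, 4 without Mo17 replicate 1), where pdi4 gave -0.62, -0.60 and -0.60 and passed (-0.80 to -0.44 leaving out each array). The count of B73xMo17 against dose went from 2 to 1 with a constant of 1, no filter, no variance trend or the expectation on the log2 scale (1 to 2 leaving out each array). The count of reciprocal differences in excess of dose went from 1 to 2 after the 3 scalings and with the replicate block (0 to 2 leaving out each array, and 0.91 to 1.16 for pdi4). The reciprocal count was 2 to 4 leaving out each array, and the inbred count was 6 to 9. Signs turned without passing the test in these cases. With equal parental weights, pdi4 in Mo17xB73 against the parents gave 0.017 at Zm.14476.2.S1_x_at and 0.090 at Zm.14476.2.S1_at, which gave 0.056 with the expectation on the log2 scale (-0.39 to 0.022 leaving out each array). After quantile normalization, median centring and trimmed mean scaling in turn, the inbred difference was 0.045, 0.028 and 0.024 for pdi6, and the reciprocal difference was 0.13, 0.12 and 0.12 for pdi8, 0.070, 0.068 and 0.066 for pdi10, 0.12, 0.11 and 0.11 for pdi12 Zm.5770.1.S1_at and 0.057, 0.10 and 0.11 for PDIL5-1. B73xMo17 minus B73 for pdi3 was -0.027, -0.056 and -0.031. After median centring and trimmed mean scaling, pdi (PDIL1-1) gave 0.0025 and 0.00061 between the inbreds and 0.014 and 0.019 between the hybrids. Leaving out each array gave -0.47 to 0.11 (pdi6, inbreds), -0.067 to 0.26 (pdi12 Zm.5770.1.S1_at, inbreds), -0.24 to 0.16 (pdi8, hybrids), -0.17 to 0.040 (PDIL5-1, hybrids), -0.50 to 0.052 (pdi4 Zm.14476.2.S1_at, B73xMo17 minus B73), -0.030 to 0.095 (pdi3, the same) and -0.17 to 0.15 (pdi3, Mo17xB73 minus Mo17). Over all probe sets the replicate block raised the count for B73xMo17 against dose from 84 to 169 and for Mo17xB73 from 67 to 164, and changed no other count of pdi calls by over 1.5 times. Without detection calls, signal over background could not be judged for dim probe sets such as those of pdi5 and pdi4 Zm.14476.2.A1_at.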
